A study of Mus musculus with 7 samples.

Results

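Cd38 and Bst1 are neighbouring paralogous genes that encode enzymes on the outer face of the cell membrane. Both symbols were found once among the 31053 genes of every library, so 2 of 31053 genes are described. They were selected for their rise in the monocytes of HRO samples, so the HRO and WTO values in monocytes are given as a description, with no test. The data are single-cell RNA counts of mouse whole bone marrow, which had been taken from several bones and lysed to remove red cells. Each sample had been marked with a hashtag antibody and mixed with others, which gave 20 hashtag samples in 4 pools (7 libraries). By their names the samples form the groups HRO (6 samples), WTO (4), HRY (3) and WTY (3). HRO.5 and HRO.6 (2 samples) are called chronic here, because the series text names them chronic and TET2-mutated. The sources used here give no genotype, treatment, age or meaning of the prefixes for the other samples, and HR.7 and HR.AE were put in no group. By pool, the HRO samples were HRO.7, HRO.8 and HRO.9 in WBM_2, HRO.10 in WBM_3, and HRO.12 and HRO.11 in WBM_4. The WTO samples were WTO.3 in WBM_1, WTO.4 in WBM_2, and WTO.6 and WTO.5 in WBM_4. WBM_1 also contained WTY.3, the 2 chronic samples and HRY.4, and WBM_3 the remaining WTY and HRY samples. HR.AE was in WBM_2 and HR.7 in WBM_3.

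The CD38 protein cleaves NAD into nicotinamide and ADP-ribose and also makes cyclic ADP-ribose, a messenger that releases calcium inside cells. BST1 is anchored in the membrane by a lipid and carries out the same kind of reaction with lower activity. In blood-forming tissue, CD38 is known as a surface antigen of B cells, plasma cells and activated T cells and as a gene of inflamed macrophages, and BST1 as an antigen of neutrophils, monocytes, early B cells and marrow stroma.

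The genes lie on the plus strand of chromosome 5. In the GENCODE annotation of the mm10 build, Bst1 (ENSMUSG00000029082) spans 43818885 to 43843986 and Cd38 (ENSMUSG00000029084) 43868553 to 43912375, with 24566 bases between them. Fbxl5 (ENSMUSG00000039753), which encodes an iron-sensing subunit of a ubiquitin ligase, lies on the minus strand from 43744615 to 43821638 and overlaps the start of Bst1. Kept cells held 6836 UMIs (counted RNA molecules) of Cd38, 11400 of Bst1 and 26347 of Fbxl5. The strand setting of the counting is not given in the sources used here.

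Libraries held 25343305 to 95553827 UMIs, and 43024 cells were kept. Cells were sorted into 14 classes by clustering and marker genes, and each class name stands for cells that resemble it. Clusters of 5899 cells stayed without a name, among them 16.5% of HRO, 15.9% of WTO and 0.139% of chronic cells. Libraries WBM_3a and WBM_3b shared 2078 barcodes, against at most 51 for any other pair, and the copy with fewer UMIs was removed. Ddx3y, a Y-linked gene, was detected above 5 CPM in 1 of 6 HRO and 3 of 4 WTO samples. The labels do not say that hashtags mark separate animals, so p-values measure the spread between these samples, which may be technical. Values are in CPM, the UMI count of the gene relative to all UMIs of that class in a sample, on the standard scale of that name. A sample was measured in a class where it had 20 cells or more. CPM values take no account of gene length, so the genes are not compared with each other.

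In the monocytes of HRO samples, Cd38 stood at 52.4 ± 27.6 CPM (SD, n = 6) and Bst1 at 79.7 ± 14.8 CPM. The WTO samples had 1.48 ± 1.88 CPM of Cd38 (n = 4) and 18.6 ± 7.87 CPM of Bst1. Both genes were higher in each HRO sample than in any WTO sample, which was the pattern they were selected on. Of the 10101 genes tested in monocytes, 3.22% separated the groups in this way with HRO higher, and 8.95% passed the adjusted threshold in either direction.

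Cd38 in HRO monocytes was lowest in HRO.11 (28.8 CPM), had a median of 43.5 CPM and was highest in HRO.10 (105 CPM). In the WTO samples it was 0 in WTO.3, 1.99 in WTO.4, 0 in WTO.5 and 3.92 CPM in WTO.6. With 3 UMIs taken as the limit that a count of 0 allows, WTO.3 could hold up to 8.78 CPM and WTO.5 up to 5.48 CPM, still under every HRO sample. The WTY samples had 8.00, 1.13 and 2.17 CPM and the HRY samples 6.02, 1.49 and 0 CPM. The 3 samples of WTY, HRY and WTO from pool WBM_1 spanned 0 to 8.00 CPM, and the chronic samples of the same pool had 10.8 and 9.50 CPM. No sample outside the HRO group exceeded 10.8 CPM. The fitted log2 fold change of HRO over WTO was 5.01 ± 0.52 (SE), and it has no test because the contrast chose the gene.

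Bst1 in HRO monocytes ran from 67.1 CPM in HRO.8 to 106.0 CPM in HRO.10, with a median of 76.0 CPM. WTO samples had 29.3, 16.2, 18.3 and 10.5 CPM, so Bst1 was detected in the monocytes of every WTO sample. WTY samples had 56.0, 35.1 and 36.4 CPM, HRY samples 26.5, 16.4 and 14.9 CPM, and the chronic samples 29.6 and 59.5 CPM. The HRO samples were above all of these, with WTY.3 and HRO.6 the nearest. The fitted log2 fold change of HRO over WTO was 2.40 ± 0.20 (SE), again with no test.

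**Figure D1:**
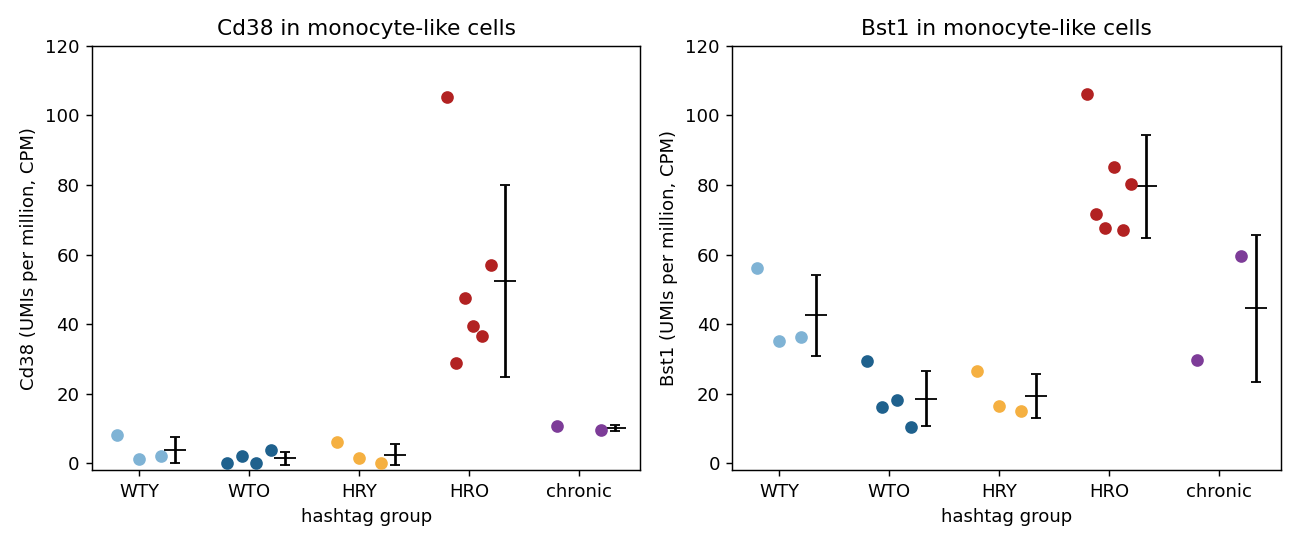
Cd38 (left) and Bst1 (right) in monocyte-like cells, in CPM, 1 point per hashtag sample, with the mean and SD of each group as a black mark and bar. The HRO samples sit above all others for both genes, with HRO.10 the highest at 105 CPM of Cd38 and 106.0 CPM of Bst1.

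Within HRO the samples were spread over different monocyte clusters. HRO.7 and HRO.8 lay in cluster 5, which is led by Gm4841 and Iigp1, and had 39.5 and 36.5 CPM of Cd38. Most monocytes of HRO.9, HRO.10, HRO.11 and HRO.12 (61.4% to 94.7%) lay in cluster 6, led by Vcan and Ifi202b, with 69.4, 105.0, 42.6 and 51.2 CPM of Cd38. In cluster 3, which held 62.3% of WTO but 2.11% of HRO monocytes, HRO.9 had 29.4 and HRO.10 89.6 CPM of Cd38 against 1.75, 0 and 2.36 CPM in WTO.4, WTO.5 and WTO.6. These 2 HRO values rest on 42 and 22 cells, belong to the values on which the genes were selected, and lie in clusters made with Cd38 and Bst1 among the variable genes. In the cycling cluster 30, Cd38 was 10.8 CPM in HRO.11, 39.9 in HRO.12 and between these in HRO.9, and 1.65 CPM in WTO.4.

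Bst1 differed more between the clusters of one sample. HRO.9 had 101.3 CPM in cluster 6, 36.8 in cluster 3 and 33.3 in cluster 30, and HRO.11 had 115.9 CPM in cluster 6 and 26.0 in cluster 30. In cluster 3, HRO.9 and HRO.10 had 36.8 and 52.3 CPM against 11.8 to 23.3 CPM in the 3 WTO samples, while WTY.4 and WTY.5 had 35.1 and 36.4 CPM. The HRO values rest on 10 and 7 UMIs, and the WTY values lay close to them.

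The levels of 5 interferon gamma targets were set beside these values. Each of the 5 was highest in HRO.7 and HRO.8, whereas Cd38 and Bst1 were highest in HRO.10. Iigp1, an immunity-related GTPase, was 484.1 CPM in the monocytes of HRO.7 and 461.0 CPM in HRO.8, against 0.481 CPM in HRO.12, 1.53 CPM in HRO.9, 47.5 CPM in HRO.10 and 55.7 CPM in HRO.11. Cxcl9, a chemokine that attracts T cells, was 254.8 and 252.2 CPM in HRO.7 and HRO.8 and 0.481 to 37.3 CPM in the other 4 samples. Both overlapped the WTO samples, as did Gbp2, another interferon-induced GTPase (13 to 441 CPM in HRO and 5.86 to 17.4 CPM in WTO). Irf1, a transcription factor of the response, separated the groups as Cd38 did, with 51.2 to 177 CPM in HRO and 29.3 to 43.9 CPM in WTO. So did Ciita, the regulator of MHC class II genes, with 4.32 to 127 CPM in HRO and 1.83 to 3.13 CPM in WTO. Without HRO.7 and HRO.8 the HRO mean of Cd38 was 59.7 CPM.

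The share of monocytes with at least 1 Cd38 UMI was 23.6% to 56.0% in HRO samples (median 30.7%) and 0% to 2.38% in WTO samples. For Bst1 the shares were 43.8% to 57.0% (median 48.8%) and 8.26% to 13.6%. The median depth of these cells was 7432 to 11412 UMIs in HRO and 2588 to 7428 in WTO. After every cell was thinned to 1000 UMIs the Cd38 share was 2.68% to 9.75% in HRO and 0% to 0.235% in WTO, and the Bst1 share 6.51% to 14.9% and 0% to 2.82%. HRO and WTO shares did not overlap at that equal depth. For Bst1 the thinned shares of WTY (5.66% to 8.24%) and chronic monocytes (2.86% and 6.73%) overlapped those of HRO, while the shares before thinning (13.7% to 15.3% and 7.14% and 18.0%) did not. Erythroid cells, which should lack both genes, had a Cd38 UMI in 1.04% and 1.55% of cells of the 2 HRO samples with that class, at median depths near 30036 UMIs, and in 0% to 7.69% of WTO cells. The share of WTO monocytes with Cd38 lay within that erythroid range, and that of HRO monocytes lay above it. The median of the 3 WTO erythroid samples was 0%, so a single sample sets the top of the range. Whether the Cd38 share of WTO monocytes is background was not tested. For Bst1 the erythroid shares were 0.775% and 1.04% in HRO, 0% to 6.41% in WTO and 10.3% in the 1 WTY sample. The Bst1 shares of WTO monocytes lay above the erythroid shares of WTO, but not all above that of WTY. The part of background in them was not tested.

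In 6 of 6 HRO samples, Bst1 UMIs were found in more of the Cd38-positive monocytes than of the others. The shares were 59.2% against 49.6% in HRO.7, 71.4% against 37.3% in HRO.8, 51.1% against 39.9% in HRO.9, 60.7% against 52.3% in HRO.10, 64.3% against 38.8% in HRO.11 and 55.9% against 52.7% in HRO.12. Deeper cells hold more of any RNA, and in HRO.10 cells with both had a median of 9373 UMIs and cells with neither 5618, whereas in HRO.8 they had 10650 and 11139. The part of depth in these shares was not tested.

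Transcripts of other cell types were set beside these values. The summed level of 7 mature neutrophil markers in monocytes was 295 to 1381 CPM in HRO and 656 to 1888 CPM in WTO, and that of 11 B lineage markers was 8.01 to 28.8 CPM in HRO and 31.1 to 255 CPM in WTO. These are the classes with the most Bst1 and Cd38 in WTY and WTO marrow, and macrophages were the class with the most Cd38 in HRO marrow. The 8 macrophage markers summed to 64.2 to 79.7 CPM in HRO and 63.1 to 155 CPM in WTO. The 12 T or NK markers summed to 12.3 to 67.1 CPM in HRO and 10.5 to 52.7 CPM in WTO. The part of these transcripts in the result was not tested.

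Across the classes of WTY and WTO marrow, the order of levels differed between the genes. Cd38 was highest in B lineage cells (146 ± 46.7 CPM, n = 7), followed by T or NK cells (40.8 ± 16.7 CPM, n = 6), plasmacytoid dendritic cells (26.8 ± 8.18 CPM, n = 3) and conventional dendritic cells (13.4 ± 8.19 CPM, n = 5). Only the steps from B lineage to T or NK cells and from plasmacytoid to conventional dendritic cells exceeded the larger SD of the 2 neighbours. Immature neutrophils (2.97 ± 1.61 CPM), monocytes (2.46 ± 2.80 CPM), mature neutrophils (2.17 ± 2.63 CPM) and granulocyte-monocyte progenitors (0.872 ± 0.694 CPM; n = 7 each) were at the low end, and their neighbours in the order did not differ beyond that spread.

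Bst1 was highest in mature neutrophils (235 ± 113 CPM, n = 7), which stood apart from B lineage cells (35.1 ± 13.9 CPM) and monocytes (28.8 ± 15.5 CPM). B lineage cells and monocytes did not differ beyond their spread, and conventional dendritic cells followed at 12.1 ± 8.22 CPM (n = 5). All other classes with 3 or more samples had means under 10 CPM. The WBM_1 samples had less Bst1 in mature neutrophils, with 142 CPM in WTY.3, 80.1 in WTO.3 and 91.7 in HRY.4, against 192 to 394 CPM in the WTY and WTO samples of the other pools. The 3553 cells of the unnamed cluster 0, led by Chil5 and Mmp9, held 69.9 to 172 CPM of Bst1 in the 5 WTY and WTO samples measured there.

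In HRO marrow, macrophages had the highest Cd38 of any class, at 274 CPM in HRO.7 and 271 CPM in HRO.8, and 145 and 109 CPM of Bst1. No WTY or WTO sample had 20 macrophages, so no level can be set against these. Nonclassical monocytes of HRO.9 and HRO.10 had 53.1 and 76.5 CPM of Cd38. Those of WTY.3, the only sample of WTY or WTO with this class, held none among 25902 UMIs from 28 cells. So few UMIs leave room for a level as high as in these HRO samples, so no difference is read from them.

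**Figure D2:**
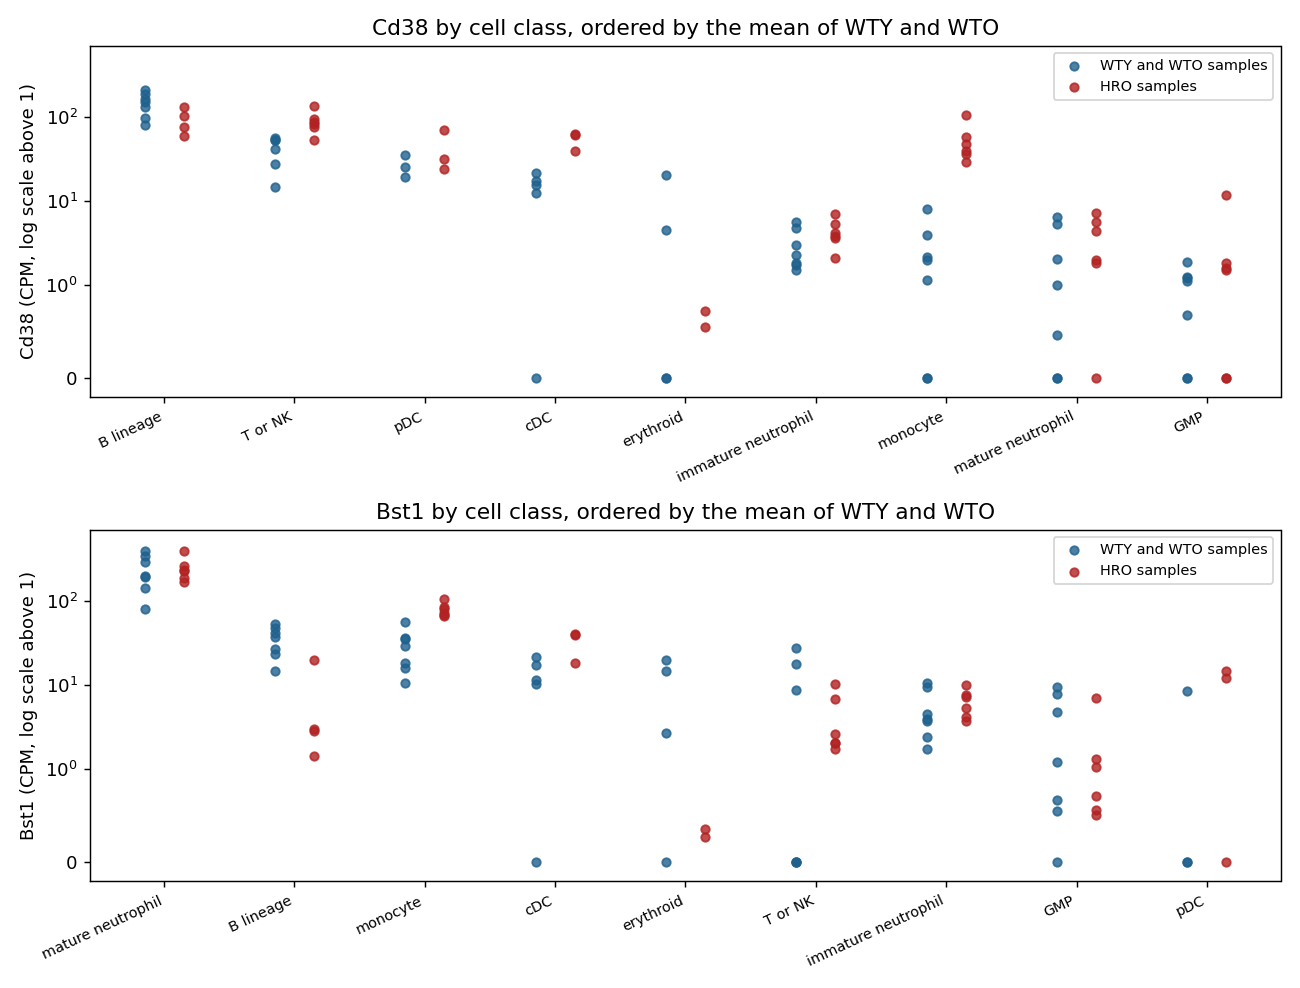
Cd38 (top) and Bst1 (bottom) by cell class in CPM, on an axis that is linear below 1 and logarithmic above, with 1 point per hashtag sample and classes measured in at least 3 WTY and WTO samples. Cd38 is highest in B lineage cells and Bst1 in mature neutrophils of WTY and WTO samples, and the HRO points lie above them in monocytes for both genes.

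HRO was then compared with WTO in the classes that did not enter the choice of the genes. Of 9 tests in 6 classes, 1 passed, Bst1 in B lineage cells, where it was lower in HRO (edgeR's quasi-likelihood test, adjusted by Benjamini-Hochberg over all genes of the class). Over all genes of these 6 classes, 2.67% passed, and 4.81% of the genes of B lineage cells passed with HRO lower. An unadjusted p under 0.05 was reached by 3 of the 9, and DESeq2 called 0 of 9. Cd38 and Bst1 were tested in no further class, because their counts there were under the low-count filter or samples were too few.

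Bst1 in B lineage cells was 2.81, 1.44, 19.8 and 2.97 CPM in HRO.7, HRO.8, HRO.9 and HRO.11, and 37.5, 23.5, 41.9 and 27.0 CPM in WTO.3, WTO.4, WTO.5 and WTO.6. All HRO samples were lower than all WTO samples, as were 11.2% of the genes tested in the class. The log2 fold change was -2.48 ± 0.73 (SE), with an adjusted p of 0.0425 by edgeR's quasi-likelihood test. The call was lost under DESeq2 (adjusted p = 0.0521), with only the compared groups in the fit (0.0962) and without HRO.7 and HRO.8 together (log2 -1.38, adjusted p = 0.248). It was also lost when HRO.7, HRO.8, HRO.11, WTO.4, WTO.5 or WTO.6 was left out alone, and kept without HRO.9 or WTO.3.

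The B lineage cells of the groups lay in different clusters. Cluster 12 was led by Vpreb3 and Vpreb1, which encode parts of the surrogate light chain of early B cells. It held 59.7% of the WTO and 3.99% of the HRO cells. Cluster 29, led by Ccl22 and Shisa8, held 84.2% of the HRO and 0.392% of the WTO cells. Its name rests on 7 B lineage markers, of which 0 were among its 10 leading genes. Of its cells, 95.3% came from WBM_2 and 73.8% from HRO.7. Whether they are B cells was not tested, so unlike cells may be compared in this class. In cluster 12, Bst1 was 46.5, 58.4, 64.0 and 30.8 CPM in the WTO samples and 139 CPM in HRO.9 (7 UMIs in 20 cells). In cluster 29 it was 2.82, 1.44 and 0 CPM in HRO.7, HRO.8 and HRO.11, and in cluster 17, led by Fcer2a and Cr2 of mature B cells, 0 to 10.2 CPM in WTO and 0 CPM in HRO.9. HRO.9 was the single HRO sample with at least 20 cells in clusters 12 and 17, so the groups could not be compared within a cluster. Transcripts of mature neutrophils, the class with the most Bst1, also differed in B lineage cells, with 7 markers summing to 28.8 to 132 CPM in HRO and 112 to 4929 CPM in WTO. Their part in the result was not tested.

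**Figure D3:**
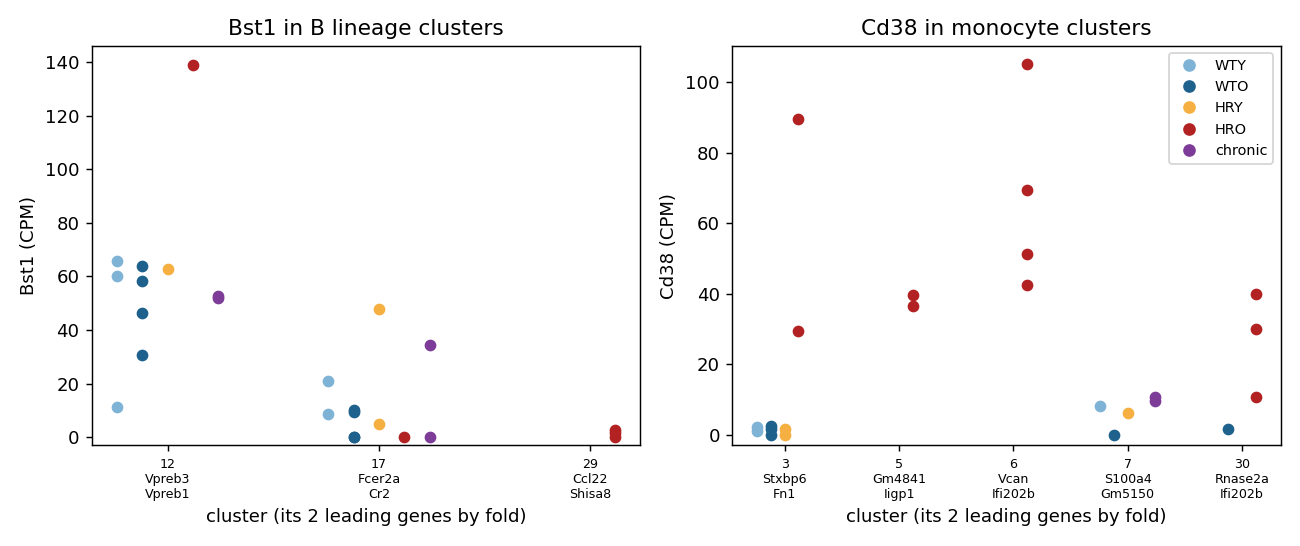
Bst1 in B lineage clusters (left) and Cd38 in monocyte clusters (right) in CPM, 1 point per hashtag sample with at least 20 cells of the cluster, coloured by group, and with the 2 leading genes of each cluster on the axis. Bst1 is high in cluster 12 in WTO samples and in HRO.9 (139 CPM), and near 0 in cluster 29, while Cd38 is higher in HRO samples in every monocyte cluster that holds both HRO and WTO points.

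Cd38 in B lineage cells was 131, 101, 59.4 and 75.7 CPM in HRO.7, HRO.8, HRO.9 and HRO.11 and 163, 189, 209 and 97.9 CPM in the WTO samples. The ranges overlapped and the difference did not pass (log2 -0.66 ± 0.33, adjusted p = 0.204, edgeR's quasi-likelihood test).

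Cd38 in T or NK cells was lowest in HRO.9 (52.9 CPM), with a median of 83.9 CPM, and highest in HRO.10 (136 CPM) among HRO samples, against 27.5, 56.0, 14.5 and 41.3 CPM in the WTO samples. The ranges overlapped only at HRO.9 and WTO.4. The log2 fold change of 0.95 ± 0.35 (SE) had an unadjusted p of 0.0155 and an adjusted p of 0.325 in edgeR's quasi-likelihood test, so it did not pass. Cluster 10, led by the cytotoxic cell genes Ccl5 and Prf1, held 77.2% of the HRO and 44.9% of the WTO cells of the class. Cluster 20, with the regulatory T cell gene Foxp3 as its leading gene, held the others (22.8% and 55.1%). Cd38 in cluster 10 was 72.6 to 181 CPM in the HRO samples and 74.2 CPM in WTO.4. In cluster 20 it was 24.1 to 67.2 CPM in 4 HRO samples and 10.3 to 29.5 CPM in 3 WTO samples, each from at most 25 UMIs.

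In neutrophils neither gene passed. Bst1 in immature neutrophils was 3.74 to 9.94 CPM in HRO (median 6.33) and 10.6, 2.38, 3.73 and 3.99 CPM in WTO, with the highest value in WTO.3. Its log2 fold change was 0.98 ± 0.34 (SE; adjusted p = 0.155, edgeR's quasi-likelihood test), and it passed with no low-count filter (adjusted p = 0.0434), without HRO.9 (0.0412) and under 2 further settings. Cd38 there was 2.08 to 6.93 CPM in HRO and 1.52 to 5.59 CPM in WTO (log2 0.59 ± 0.42, adjusted p = 0.579). Bst1 in mature neutrophils was 169 to 392 CPM in HRO (median 233) and 80.1, 344, 192 and 201 CPM in WTO, with overlapping ranges (log2 -0.06 ± 0.18, adjusted p = 0.957 in edgeR's quasi-likelihood test). Bst1 in granulocyte-monocyte progenitors was under 8 CPM in every HRO and WTO sample (log2 0.45 ± 0.54, adjusted p = 0.845). In erythroid cells Cd38 averaged 0.638 CPM in HRO and 6.82 CPM in WTO, where it reached 20.5 CPM in 1 sample. The fit gave the opposite sign (log2 3.09 ± 2.43, adjusted p = 0.711, edgeR's quasi-likelihood test). Bst1 there averaged 0.319 CPM in HRO and 5.78 CPM in WTO (log2 -1.79 ± 1.75, adjusted p = 0.775 in the same test).

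**Figure D4:**
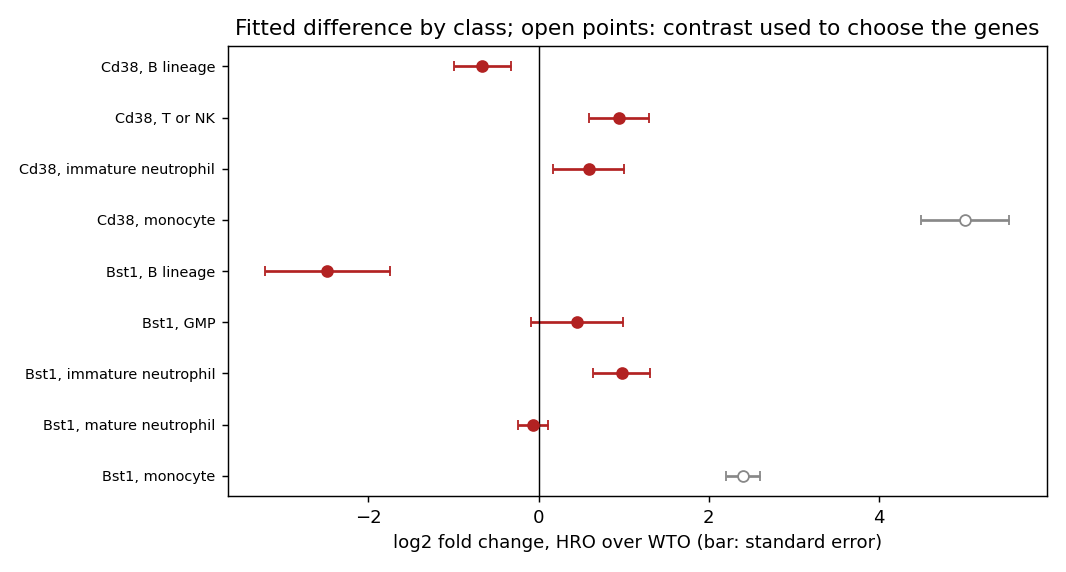
Fitted log2 fold change of HRO over WTO by class for Cd38 and Bst1, with its standard error as the bar. Erythroid cells are not drawn, and their values are given in the text. Filled points were tested and open points are the monocyte values on which the genes were selected, 5.01 for Cd38 and 2.40 for Bst1.

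Conventional dendritic cells had too few counts for the test. Cd38 there was 60.9, 62.5 and 39.7 CPM in HRO.7, HRO.8 and HRO.9 and 12.6 and 15.3 CPM in WTO.3 and WTO.4, and Bst1 was 40.6, 39.0 and 18.5 CPM against 0 and 10.2 CPM. Both genes were higher in the 3 HRO samples than in the 2 WTO samples, as were 20.8% of the 9741 genes with at least 10 UMIs in this class. That minimum was chosen after the values had been seen. Transcripts of monocytes, macrophages and mature neutrophils went the other way and were lower in the HRO dendritic cells. The 7 monocyte transcripts summed to 854 to 5111 CPM in HRO and 11938 to 16338 CPM in WTO. The 8 macrophage markers summed to 3.12 to 444 CPM in HRO and 829 to 1865 CPM in WTO. The 7 mature neutrophil markers summed to 49.98 to 614 CPM in HRO and 1068 to 1142 CPM in WTO. Their part in the difference was not tested. This class is cluster 19 of 961 cells, with both Xcr1 and Cd209a among its leading genes. At clustering resolution 2, the only cluster named for the class held 433 cells led by Xcr1 and Tlr3, 78.8% of them from WBM_2. Clusters led by Cd209a were not given that name. Whether the class holds cells of a single kind was not tested, so unlike cells may be compared.

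HRY and WTY samples did not enter the choice of the genes and were compared in every class. Here 0 of 9 tests passed in edgeR's quasi-likelihood test and 0 in DESeq2, and 2 had an unadjusted p under 0.05. The background was 0.00873% of all genes in these 6 classes. Bst1 in monocytes was lower in the 3 HRY samples (26.5, 16.4 and 14.9 CPM) than in the 3 WTY samples (56.0, 35.1 and 36.4 CPM), without overlap, as were 2.36% of the genes of this class. The log2 fold change of -1.14 ± 0.23 (SE) had an unadjusted p of 0.000154 and an adjusted p of 0.916 in edgeR's quasi-likelihood test. It passed when all genes above 0 counts were tested (0.000963) and when only the compared groups were fitted (0.0193). Cd38 in monocytes was 6.02, 1.49 and 0 CPM in HRY and 8.00, 1.13 and 2.17 CPM in WTY, which overlapped (log2 -0.91 ± 0.90, adjusted p = 1).

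Between WTO and WTY 0 of 9 tests passed by either tool, 1 had an unadjusted p under 0.05, and the background was 0.00436%. That test was Bst1 in monocytes, where all 4 WTO samples (10.5 to 29.3 CPM) were below the 3 WTY samples, a pattern found in 3.03% of the genes. The log2 fold change was -0.76 ± 0.28 (SE; unadjusted p = 0.0134, adjusted p = 1 in edgeR's quasi-likelihood test). Cd38 was at 0 to 8.00 CPM in the monocytes of both groups. The WTO values in monocytes are the control side of the contrast on which the genes were selected. They may be low by that choice.

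For the chronic samples 0 of 11 tests against WTO passed by either tool, 0 had an unadjusted p under 0.05, and 0% of all genes in these 7 classes passed. All chronic samples come from WBM_1, which holds 1 WTO sample. In monocytes the chronic samples had 10.8 and 9.50 CPM of Cd38 and 29.6 and 59.5 CPM of Bst1, above all 4 WTO samples, as were 3.56% of the genes. These WTO values, too, belong to the contrast on which the genes were selected. The Cd38 value of HRO.5 rests on 4 UMIs, and WTO.3, with a count of 0, could hold up to 8.78 CPM. The Bst1 value of HRO.5 (29.6 CPM) lay barely above that of WTO.3 (29.3 CPM). Within WBM_1, WTY.3, WTO.3 and HRY.4 had 8.00, 0 and 6.02 CPM of Cd38 and 56.0, 29.3 and 26.5 CPM of Bst1, so the chronic Bst1 values overlapped those of the pool. The fitted log2 fold changes were 0.10 ± 0.95 for Cd38 and 0.66 ± 0.33 for Bst1 (SE; adjusted p = 1 for both in edgeR's quasi-likelihood test).

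The change between HRO and WTO was also set against that between HRY and WTY in the classes outside monocytes, with 7 tests of the difference. The smallest adjusted p was 0.295, for Bst1 in immature neutrophils (log2 difference 2.11 ± 0.62, edgeR's quasi-likelihood test), so none passed, and 2 had an unadjusted p under 0.05.

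The other NAD genes form a list of 65 genes that make, transport, consume or bind NAD and its products. In monocytes, where 41 of the 65 were tested, 2 rose and 2 fell in HRO against WTO, which is 9.76% of those tested beside 8.95% of all genes. Kynu, an enzyme of NAD synthesis from tryptophan, was 5.19 to 23.0 CPM in HRO and 1.31 to 5.69 CPM in WTO, and Parp12, an interferon-induced mono-ADP-ribose transferase, 15.1 to 88.0 CPM and 1.83 to 32.2 CPM. P2rx7, an ion channel receptor that extracellular NAD can gate through ADP-ribosylation, was 11.8 to 24.0 CPM in HRO and 29.2 to 36.6 CPM in WTO, and Haao, a further enzyme of synthesis from tryptophan, 7.40 to 20.2 CPM and 8.78 to 32.7 CPM. The median log2 fold change of the 41 was 0.10, beside 0.01 over all genes. These counts rest on single samples: without HRO.9, 9 rose and 4 fell, and without WTO.4 there were 0 of either. The shares of all genes past the threshold in these fits are not given here, so such counts are not read as particular to NAD genes. Each of the 4 calls was lost in 3 to 7 of the 10 fits that left out 1 sample.

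Outside monocytes 2 of the NAD genes passed, both lower in HRO, while 2.32% of all genes of these classes passed. Without HRO.9, 19 tests passed with HRO higher. The share of all genes past the threshold in that fit is not given here, so this count is not read as particular to NAD genes. Slc25a51, the mitochondrial NAD carrier, was 20.8 to 31.1 CPM in the B lineage cells of HRO and 53.6 to 145 CPM in WTO (log2 -1.19 ± 0.27, adjusted p = 0.0178, edgeR's quasi-likelihood test). Nt5e, which makes adenosine from AMP outside the cell, was 3.68 to 13 CPM in the mature neutrophils of HRO and 19.2 to 40.9 CPM in WTO (log2 -1.60 ± 0.30, adjusted p = 0.0145 in the same test). Both calls were lost without HRO.11 (adjusted p = 0.179 for Slc25a51 and 0.0711 for Nt5e) and without WTO.4 (0.0708 and 0.0756). Of 18 other settings, 4 lost the call of Slc25a51 (adjusted p up to 0.244, with at least 50 cells) and 6 that of Nt5e (up to 0.142, without the pool term). For Slc25a51, 84.2% of the HRO but 0.392% of the WTO B lineage cells lay in cluster 29, so unlike cells may be compared. Of all genes tested in B lineage cells, 4.81% passed with HRO lower.

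Beside the pair, Fbxl5 was 72.7 to 169 CPM in HRO monocytes and 45.8 to 58.5 CPM in WTO monocytes, without overlap. Its log2 fold change was 1.10 ± 0.21 (SE; adjusted p = 0.00576, edgeR's quasi-likelihood test), in B lineage cells it was -1.06 ± 0.29 (adjusted p = 0.0314) and in immature neutrophils 0.42 ± 0.11 (adjusted p = 0.0396). The sign of the Fbxl5 difference was that of the Bst1 difference in each of these 3 classes, of which Bst1 passed in B lineage cells. For both genes, unlike cells may be compared in the B lineage class. In mature neutrophils the signs differed, with 0.44 ± 0.15 for Fbxl5 (adjusted p = 0.17) and -0.06 for Bst1. WTY monocytes had 99.6, 121 and 114 CPM of Fbxl5, within the HRO range. The monocyte call was lost without WTO.4 (adjusted p = 0.13), with only the compared groups (0.0995) and without the pool term (0.0582), and the B lineage call was lost when any of 5 single samples was left out and the immature neutrophil call when any of 7 was. The genes overlap on opposite strands, and whether reads of one were counted for the other was not tested. On the far side, the pseudogene Gm7879 had 252 UMIs in all kept cells, and the antisense RNA Gm16015 inside Cd38 had 1.

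The genes most like each member were named by the smallest root mean square difference between centred log2 profiles, among genes with at least 20 CPM in monocytes. Over the monocytes of 19 hashtag samples, Cd38 was closest to Ifitm1 (difference 1.17), Zfp36l1 (1.27), AW112010 (1.40), Cd300lf (1.58) and Bst1 (1.58), the fifth of 5878 genes. Bst1 was closest to Ms4a6d (0.41), Cd300lf (0.48), Pla2g7 (0.50), Clec4e (0.50) and Il4ra (0.54). Over 14 cell classes the pair were far apart: Cd38 was closest to Icam1, Phf11b, Camk2d, Mdfic and Pgap1, with Bst1 at place 3462, and Bst1 was closest to Pira2, Lrrc25, Slc15a3, Lilra6 and Gm5150. These profiles share libraries, pools and depth, and the monocyte profiles include the contrast on which the genes were selected.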

How the data were processed

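The authors deposited raw UMI counts of each gene in each barcode, written by Cell Ranger 3.0.0 for WBM_1 and 3.1.0 for the other libraries per the file headers, and raw hashtag counts. The submitters' processing notes also name bcl2fastq, Seurat and the mm10 build. Sources used here give neither the annotation nor the cell filter.

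Hashtags were assigned with HTODemux (Seurat 5.3.0, quantile 0.99) and singlets kept. Cells with under 300 genes or at least 10% mitochondrial counts were removed. Cells were clustered in scanpy 1.11.5 (2000 variable genes, 30 components, 20 neighbours, Leiden resolution 1) without integration, and clusters named from 18 marker lists. To be named, a cluster needed 3 markers at over 2-fold the level of other cells and present in over 10% of its own. 3 clusters with markers of 2 classes were split again at resolution 0.1. The split and its resolution were chosen after the cluster names under 5 split settings had been seen, ahead of a look at the values of the members in these clusters, and trials with more Leiden iterations and with scaled genes were seen and not used. Doublets were removed by hashtag only, since Scrublet called 0% of barcodes in 3 libraries.

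Counts were summed per sample and class (at least 20 cells) and tested with edgeR 4.0.16 (quasi-likelihood test, TMM, filterByExpr, Benjamini-Hochberg at 0.05) with group and pool as terms and all groups in the fit. Adjusted p-values in the report come from this fit unless their sentence names another setting or tool. Each SE is the absolute log2 fold change over the square root of F. The fit was tested on simulated data. For shares of cells, counts and limits cover counting error only. Named genes were both members, NAD genes past the threshold, the 5 genes with the most similar profile for each member, and genes beside the pair. The members, the lists, the plot of clusters and the comparison with Fbxl5 were chosen with earlier results of these data known. Chronic samples lie in 1 pool, and their pool term rests on WTY.3, WTO.3 and HRY.4.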

Additional observations from a re-analysis of the deposited data

Results flagged for a closer look

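Of 26 groups of 4 to 10 samples checked for a sample far from the others, 6 had one. The rule flags about 1 in 20 groups of normally distributed values. CPM values from few UMIs are not of that kind, so the count is not set against chance. Cd38 in the monocytes of HRO.10 was 105 CPM, far above the other 5 HRO samples. HRO.10 also stood apart in granulocyte-monocyte progenitors, with 11.8 CPM of Cd38 and 7.10 CPM of Bst1. Bst1 in the B lineage cells of HRO.9 was 19.8 CPM, above the other 3 HRO samples. Bst1 in the progenitors of WTO.3 was 7.79 CPM, above the other 3 WTO samples. In stem and multipotent progenitor cells, HRO.9 had 0.573 CPM of Bst1 from 1 UMI, and the other 4 HRO samples had 0.

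HR.7, which was put in no group here, had levels above every WTY and WTO sample in 4 cases. This was checked where HR.7 held more than 3 UMIs of the gene and 3 or more WTY and WTO samples had the class. The number of cases checked is not given. Cd38 was 116 CPM in its T or NK cells, 35.6 CPM in its conventional dendritic cells and 62.8 CPM in its plasmacytoid dendritic cells. Bst1 was 44.7 CPM in its conventional dendritic cells. In its monocytes Cd38 was 6.19 CPM, within the range of the WTY samples.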

How the results depend on the processing

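Up to 18 other settings were tried for each comparison, beside leaving out each sample in turn. The 4 settings for the split of mixed clusters were chosen after the data had been seen. The member tests described one by one were picked after the fits had been seen, so counts over all of them come first. The sign changed under some other setting in 4 of 9 tests of HRO against WTO, 2 of 9 of HRY against WTY, 5 of 9 of WTO against WTY and 7 of 11 of the chronic samples, and the side of the threshold in 2, 1, 0 and 0. With 1 sample left out the sign changed in 3, 2, 5 and 9 tests and the side in 2, 0, 0 and 1. Unless a cause is named, the cause was not tested.

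The count of 1 call outside monocytes became 0 with DESeq2, with only the compared groups, without HRO.7 and HRO.8, with at least 50 cells (Bst1 in B lineage cells, adjusted p = 0.293), under 5% mitochondrial counts (0.165) and with the top 5% of Scrublet scores removed (0.0551). It became 2 with no low-count filter, with clusters made without Cd38 and Bst1 and with the split at resolution 1. With 1 sample left out it ran from 0 to 2. For HRY against WTY the count of 0 became 1 with no low-count filter and with only the compared groups. For WTO against WTY and for the chronic samples it ran from 0 to 1 with 1 sample left out. The single call came in each case without WTO.3, in erythroid cells, and for WTO against WTY that left 1 sample on one side, assumed to vary like the others.

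Bst1 in the mature neutrophils of HRO against WTO changed sign, with log2 values of 0.16 without the pool term, 0.13 with hashtags normalised within each cell, 0.081 at clustering resolution 2, 0.019 with each cell gated by its own markers, 0.12, 0.11 and 0.032 with the split at 0.2, 0.3 and 1, and -0.24 to 0.063 with 1 sample left out. Without the pool term, Bst1 in granulocyte-monocyte progenitors was -0.15 and Cd38 in the monocytes of WTO against WTY -0.82. The latter was -0.19 to 1.78 with 1 sample left out, and Cd38 in the immature neutrophils of HRO against WTO was -0.22 to 1.08. WTO.4 gave the changed sign in all 3 cases. For the chronic samples, Cd38 in monocytes was -0.074 with Ddx3y as a term, -0.12 with each cell gated and -1.64 to 0.64 with 1 sample left out (lowest without WTO.3), and Bst1 was -0.18 to 0.94 (lowest without HRO.6, which left 1 chronic sample). None of these passed the threshold.

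Mean Cd38 in HRO monocytes was 52.2 to 61.6 CPM and mean Bst1 79.1 to 96.3 CPM over the settings, with the highest Bst1 where each cell was gated. The median share of HRO monocytes with Cd38 was 6.19% after thinning and 10.8% at a minimum of 2 UMIs, and with Bst1 8.16% and 23.8%. For Bst1 in WTO it was 1.60% and 1.18%. Fewer UMIs per cell and a higher minimum lower such shares by construction.

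Of the NAD genes in monocytes, 0 rose and 0 fell without the pool term, 0 and 1 without HRO.7 and HRO.8, 0 and 1 with no split, and 1 rose with Ddx3y as a term. With 1 sample left out, 0 to 9 rose and 0 to 4 fell. In other classes 3 rose and 1 fell without the pool term, and 1 fell without HRO.7 and HRO.8 and with the split at resolution 1. There, 0 to 19 rose and 0 to 3 fell with 1 sample left out. The shares of all genes called in these fits are not given here. The Fbxl5 changes and the 6 NAD calls kept their sign in every fit.

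With shared sample numbers as a replicate block, 0 tests passed for HRY against WTY and for WTO against WTY, and Bst1 in monocytes was -0.42 (adjusted p = 0.999) and -0.85 (0.284). These numbers do not pair the samples, since same-numbered samples shared a pool for WTY.3 with WTO.3 and for HRY.5 with WTY.5 but not for the other 3 pairs. Deviations of WTY.4 and HRY.4 correlated at -0.72 over genes, and not every sample correlated best with its own number. Low counts limit precision most for Cd38 outside lymphoid cells, where a WTO sample often holds under 10 UMIs.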
